A study of Mus musculus with 12 samples.

Results

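The comparison described here asked what a corneal wound changed in the trigeminal ganglion of mice that all received electrical stimulation. The 3 libraries titled as stimulated with keratectomy were set against the 3 titled as stimulated without injury. The contrast is thus between 6 of the 12 libraries of the series, with no control library in it. All mice were female C57BL/6J aged 8 weeks. The stimulated injured mice had a 1.5 mm keratectomy, the removal of a disc of corneal surface, in a randomly chosen eye and were sampled 2 weeks later. Both stimulated groups received a biphasic ramp current of 300 µA at 20 Hz for 4 min a day over 14 days under isoflurane, with the cathode over the skin of the orbit and the anode on the abdomen. Injured mice also received ketamine and xylazine and the buprenorphine product Ethiqa XR, so the effects of surgery, anaesthetic and analgesic on these counts cannot be told apart. The other 6 libraries, 3 from unstimulated uninjured mice (control) and 3 from unstimulated injured mice, are given as description and enter the test of the difference between injury effects. They also enter a fit of all 12 libraries, through its filter, scaling and estimate of spread. All genes said below to have risen or fallen are calls of that fit. Neither the number of mice pooled into a library nor the side of the ganglion is labelled. The p-values here therefore reflect variation among libraries, which may be technical.

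The trigeminal ganglion holds the cell bodies of the sensory neurons that innervate the cornea, wrapped by satellite glia and accompanied by Schwann cells, fibroblasts of the coverings, blood vessels and resident immune cells. Corneal wounds cut the terminals of these neurons, and injured sensory neurons are known to change their ion channels, cytoskeleton and transcription factors. Immediate early genes are switched on within minutes of neuronal activity, growth factor signals or the handling of tissue, by factors already present in the cell.

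Library totals in the comparison ran from 7952798 to 10442385 counted reads. Levels are given as CPM, the reads counted per 1000000 of the scaled library total. Genes are named from the position of each counted interval on the GRCm38 genome, not from its deposited identifier, and an interval usually covers only a part of the gene. In the 6 stimulated libraries, 6 tested markers of sensory neurons summed to between 5888 and 10570 CPM with injury and between 7788 and 9421 CPM without it, so the labelled tissue carried its markers. Several properties of the libraries moved with injury or set single libraries apart. Reads from the mitochondrial genome made up 16.5% to 17.3% of counts in the stimulated injured libraries and 10.4% to 14.6% in the stimulated uninjured ones. Each library's deviations from the mean log2 level over all 12 libraries were correlated by rank with GC content, across intervals. The correlation was between 0.208 and 0.403 in the stimulated uninjured libraries and between -0.106 and 0.0848 in the stimulated injured ones. These values are relative to that mean. Stimulated injured replicate 2 and stimulated uninjured replicate 3 stood apart in the rank correlation of these deviations with the whole gene's exon length. Across genes, their values were 0.263 and 0.387. The other 4 stimulated libraries lay between -0.325 and 0.0115. In log2 CPM, stimulated injured replicate 2 correlated at 0.967 with stimulated uninjured replicate 3. With replicates 1 and 3 of its own group it correlated at 0.939 and 0.962. The part of these properties in the differences below was not tested except where a value with GC content and length offsets, or without a library, is given. The length in those offsets is the exon bases under the counted interval. The offsets thus do not adjust directly for the exon length of the whole gene.

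No interval differed between the stimulated groups when the 6 libraries were tested alone. Of 11783 intervals tested with edgeR's quasi-likelihood test, 0 (0%) passed an adjusted p of 0.05, and the smallest adjusted p was 0.135. At an unadjusted p under 0.05 there were 1730 intervals, among them 723 of the 4435 tested genes that could be named by position. DESeq2, on the same 6 libraries, called 224 intervals higher and 191 lower in injured mice. Limma's voom with sample quality weights called 766 higher and 787 lower. Without stimulated injured replicate 2, edgeR called 302 intervals higher and 335 lower in the 6-library fit, and without stimulated injured replicate 1 it called 1 higher. With all 12 libraries in 1 fit, in which the unstimulated libraries contribute to the estimate of spread, the same contrast gave 289 intervals higher (2.21%) and 242 lower (1.85%) of 13053, or 4.07% in all. Leaving out 1 library of that fit moved the counts from 873 higher and 931 lower, without stimulated injured replicate 2, to 41 and 35 without stimulated injured replicate 3 and 35 and 39 without stimulated uninjured replicate 3. When library totals alone set the scale, that split became 167 higher and 486 lower, and the median over named genes moved to -0.18 on the log2 scale from -0.01. In what follows, "rose" and "fell" are used only for calls of this 12-library fit, with injury among stimulated mice as the direction, and fold changes are those of the 6-library fit unless stated.

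**Figure D1:**
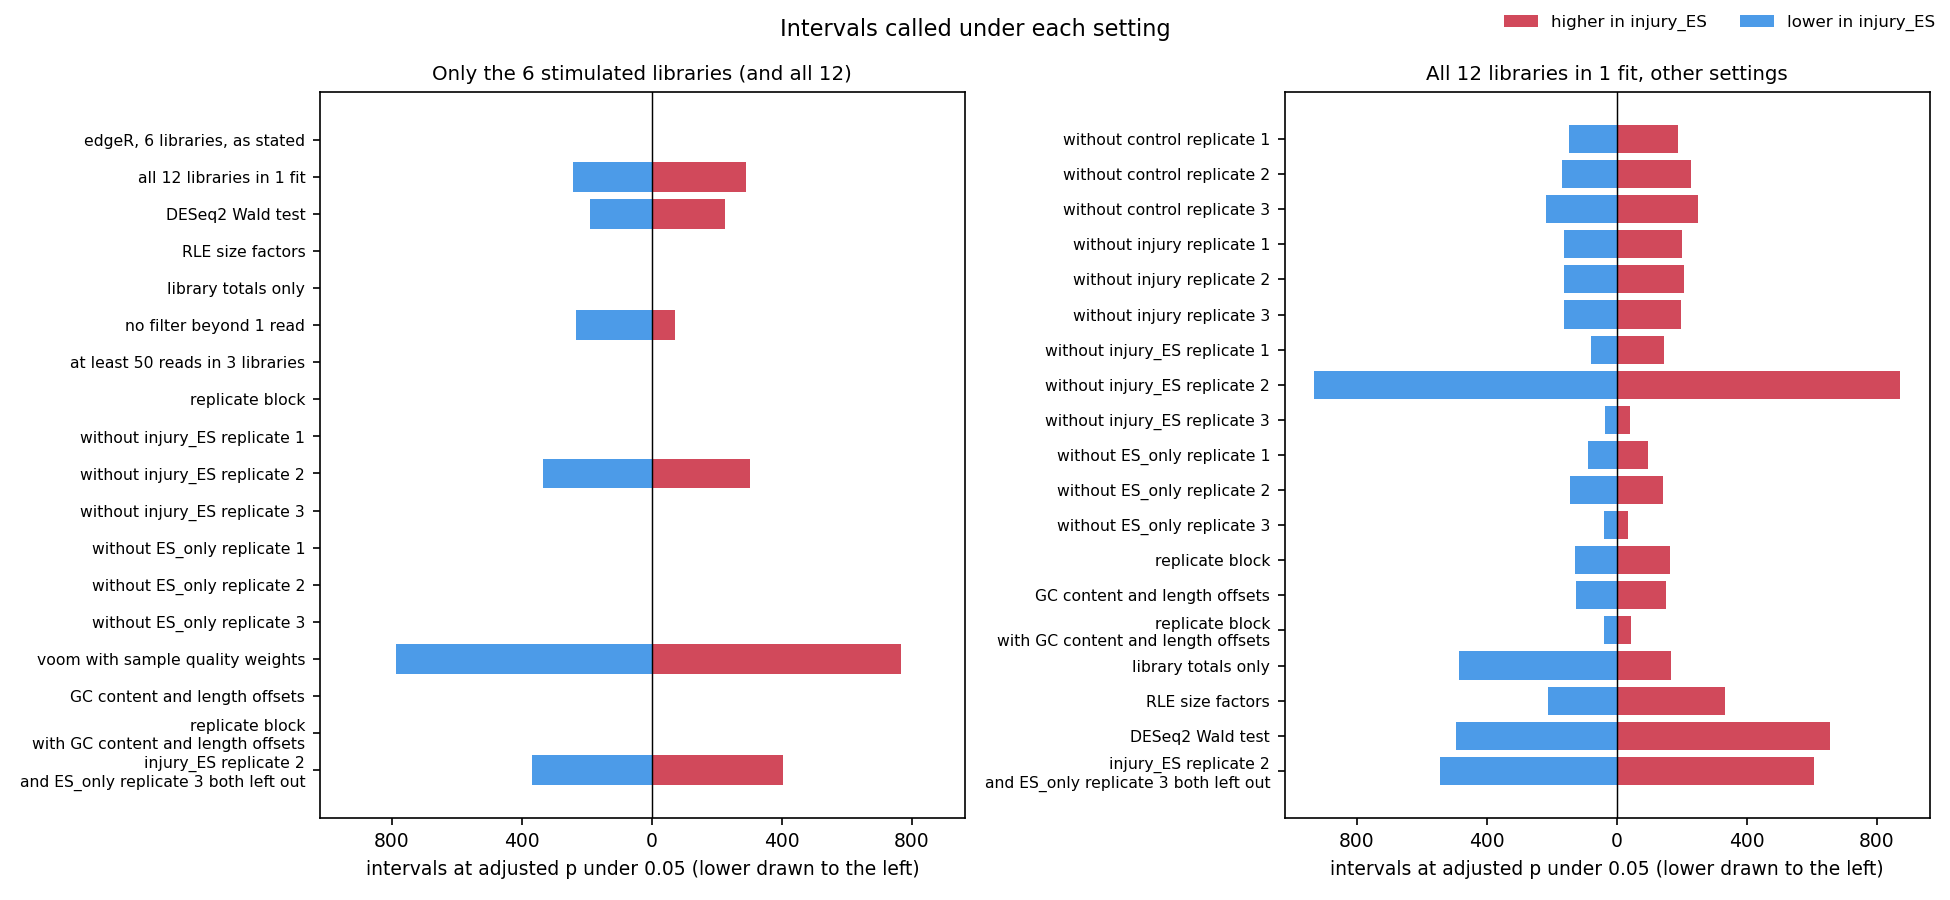
Number of intervals at an adjusted p under 0.05, higher (red, to the right) and lower (blue, to the left) in stimulated injured mice, for each setting (rows). Left, fits on the 6 stimulated libraries with the 12-library fit for reference. Right, the 12-library fit under other settings. The fit as stated called 0, and leaving out stimulated injured replicate 2 gave 302 higher and 335 lower.

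Among genes named by position, 142 rose (2.98%) and 93 fell (1.95%) of the 4771 tested in the 12-library fit. CPM of the 2 stimulated groups did not overlap in 233 of these 235 genes (4.93%). Over all 4435 named genes of the 6-library fit, the injured group lay wholly above the uninjured one in 10.5% and wholly below it in 11.2%. The stimulated uninjured libraries held the outlying level in most of the 235: they lay below all other 9 libraries in 130 and above all of them in 78. Over all named genes of the 6-library fit, these shares were 6.9% and 6.02%. The 235 were called for a difference from the stimulated injured libraries, so an outlying level was favoured by the choice. With GC content and length offsets 92 of the 235 were still called, and 18 were called in each of the 12 fits that left out 1 library.

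Most tested immediate early genes rose. Of 11 members 7 rose, 0 fell and 4 did not pass, against 2.98% and 1.95% of all named genes, and the median log2 fold change was 1.05 against 0.03 over all named genes. The 7 were Fos, Junb, Nr4a1, Klf4, Ier2, Btg2 and Dusp1, of which Ier2, Klf4 and Btg2 were named after their values were seen. In the 6-library fit none passed, with adjusted p between 0.135 and 0.146. Without stimulated injured replicate 2, 5 of 11 were called in the 6-library fit. Without stimulated uninjured replicate 3, 2 of 11 were called in the 12-library fit, and with GC content and length offsets 6 of 11.

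The promoters of the leading 4 are shown because these genes are textbook targets of factors that bind the cyclic AMP response element, whose core is TGACG. Sequences are the 250 bases before the RefSeq start on GRCm38.p6, 5′ to 3′ on the strand of the gene, with each TGACG on either strand in capitals (CGTCA is its reverse complement, and TGACGTCA holds it on both strands).
Fos, chr12:85473640-85473889, plus strand: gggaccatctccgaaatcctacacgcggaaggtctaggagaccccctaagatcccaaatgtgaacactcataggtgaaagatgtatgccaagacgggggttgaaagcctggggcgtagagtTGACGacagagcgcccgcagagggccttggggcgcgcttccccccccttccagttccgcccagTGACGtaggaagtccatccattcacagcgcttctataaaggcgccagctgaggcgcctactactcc
Dusp1, chr17:26508473-26508722, minus strand: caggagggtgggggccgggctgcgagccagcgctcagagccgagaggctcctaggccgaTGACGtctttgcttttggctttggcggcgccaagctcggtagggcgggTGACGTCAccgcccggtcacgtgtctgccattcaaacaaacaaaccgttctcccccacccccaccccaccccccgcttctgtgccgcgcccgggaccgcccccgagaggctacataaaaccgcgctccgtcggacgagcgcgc
Nr4a1, chr15:101266596-101266845, plus strand: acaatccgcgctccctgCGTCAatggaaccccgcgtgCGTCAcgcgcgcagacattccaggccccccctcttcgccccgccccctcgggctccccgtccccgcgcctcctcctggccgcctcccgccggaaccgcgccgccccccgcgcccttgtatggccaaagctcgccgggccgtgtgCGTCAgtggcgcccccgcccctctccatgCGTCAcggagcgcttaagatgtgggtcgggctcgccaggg
Junb, chr8:84978749-84978998, minus strand: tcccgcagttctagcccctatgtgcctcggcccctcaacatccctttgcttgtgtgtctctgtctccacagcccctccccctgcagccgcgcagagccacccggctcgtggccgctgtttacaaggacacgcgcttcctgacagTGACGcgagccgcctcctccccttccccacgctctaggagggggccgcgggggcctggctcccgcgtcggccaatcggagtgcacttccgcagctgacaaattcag

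RefSeq windows matched 8 of the 11 tested members. TGACG on either strand stood in 7 of these 8 windows and in 17.8% of all 32851 windows of that length. The full palindrome TGACGTCA stood in 2 of the 8, Dusp1 and Btg2, and in 1.55% of all windows. The sequence GGGCGG was searched as well, and it stood in 7 of the 8 and in 32.7% of all windows. A high share in these windows was thus not particular to TGACG. The CArG box, the site of serum response factor, stood in 0 of the 8 and in 1.47% of all windows. Bases further upstream were not searched, so this count does not show that the genes lack the box. Nr4a3, which was not called, held TGACG as well, and Ier5, also not called, was the member without it. These are matches of letters, not sites.

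Fos, the partner of Jun proteins in the AP-1 transcription factor, lies at chr12:85473890-85477273, and its interval of 1119 bases held 637 bases of exon. It was at 28.9, 35.2 and 18.8 CPM in the stimulated injured libraries and at 5.33, 9.15 and 8.92 CPM in the stimulated uninjured ones. The groups did not overlap, and the log2 fold change was 1.87 (SE 0.30), with an adjusted p of 0.135 in the 6-library fit and 0.00582 in the 12-library fit. Control libraries were at 6.54, 5.92 and 7.61 CPM, the level of the stimulated uninjured ones, and unstimulated injured libraries were at 17.3, 21.7 and 13.6 CPM.

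Nr4a1, an orphan nuclear receptor induced by activity, was at 8.75, 22.9 and 8.51 CPM with injury and at 2.55, 2.76 and 1.83 CPM without it. Replicate 2 carried the highest value by far, and the log2 fold change of 2.55 (SE 0.45) became 1.87 without that library. Its interval of 3994 bases held only 420 bases of exon. The adjusted p in the 12-library fit was 0.00915.

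Dusp1, a phosphatase that switches off MAP kinases, was at 58.7, 46.5 and 44.7 CPM with injury and at 26.6, 22.7 and 18.8 CPM without it. The log2 fold change was 1.19 (SE 0.21), and its adjusted p of 0.0139 in the 12-library fit became 0.0509 with GC content and length offsets. Junb, an AP-1 subunit, was at 165.9, 122.1 and 100.9 CPM with injury and at 72.4, 71.1 and 67.6 CPM without it, a log2 fold change of 0.93 (SE 0.21). Every stimulated injured library lay above every stimulated uninjured one for both genes.

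Ier2 was at 38.3, 32.7 and 31.5 CPM with injury and at 14.5, 22.8 and 13.6 CPM without it. Klf4, a zinc finger transcription factor, was at 49.9, 64.6 and 31.5 CPM against 20.6, 26.8 and 25.7 CPM. Btg2, an antiproliferative factor, was at 23.2, 30.8 and 13.7 CPM against 9.86, 11.4 and 9.39 CPM. In Klf4 and Btg2 the third injured library lay closest to the uninjured group.

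The remaining 4 members did not pass. Arc, a synaptic protein induced by activity, was at 10.0, 6.54 and 11.7 CPM with injury and at 12.99, 23.9 and 9.47 CPM without it, so the groups overlapped. Ier5 was at 6.21, 8.04 and 6.73 CPM with injury and at 9.63, 10.3 and 9.63 CPM without it. Klf10 and Nr4a3 had log2 fold changes of 0.14 and -0.09.

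**Figure D2:**
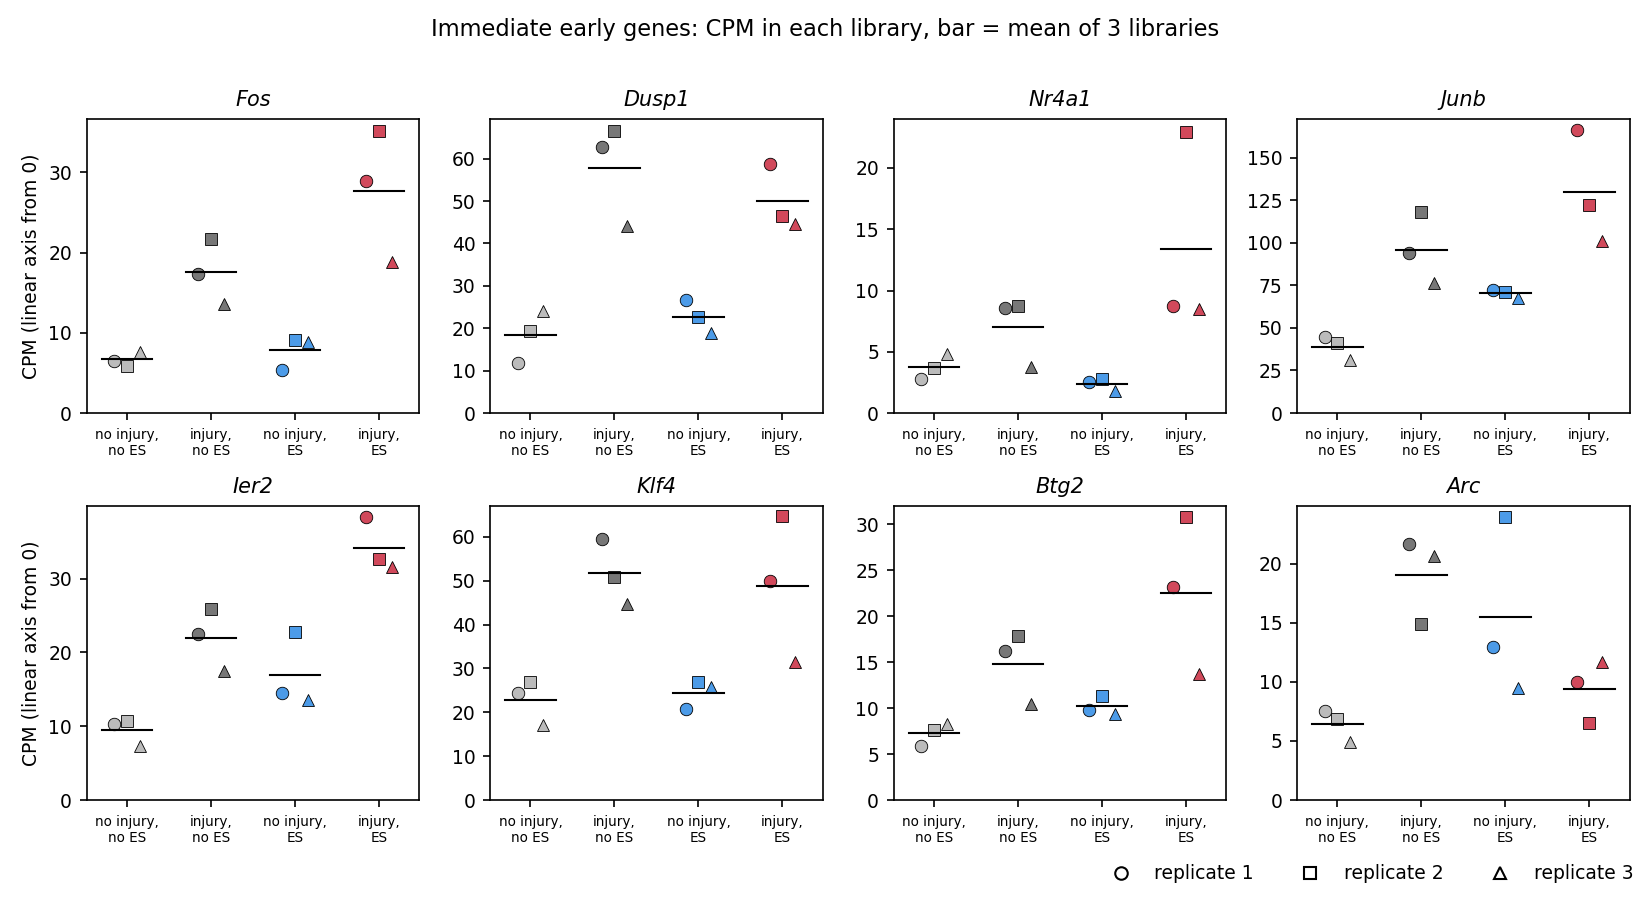
CPM (linear axes from 0) of the 7 immediate early genes that rose and of Arc in each of the 12 libraries, by group; symbols mark replicate numbers and bars the mean of 3 libraries. The 3 stimulated injured libraries lie above the 3 stimulated uninjured ones in the first 7 panels, as in Fos at 18.8 to 35.2 against 5.33 to 9.15 CPM, and overlap them in Arc.

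Red cell genes rose beside the immediate early genes. Of 10 listed erythroid genes 2 were tested, and both rose. Over all named genes tested in the 12-library fit, 2.98% rose and 1.95% fell. Neither erythroid gene was called in the 12-library fit without stimulated uninjured replicate 3. The same held in the 6-library fit without both that library and stimulated injured replicate 2. Alas2, the first enzyme of haem synthesis in red cell precursors, was at 78.2, 62.0 and 37.2 CPM with injury and at 9.97, 26.9 and 11.9 CPM without it. Slc4a1, the anion exchanger of the red cell membrane, was at 9.63, 6.97 and 4.02 CPM against 1.62, 2.76 and 1.43 CPM. The summed erythroid level was 41.2 to 87.9 CPM with injury, 11.6 to 29.7 CPM without it, 21.96 to 40.6 CPM in control and 67.8 to 82.4 CPM in unstimulated injured libraries. The part of blood in the immediate early result was not tested. Macrophage markers were not called in either direction, and 7 of them summed to 99.2 to 115.0 CPM with injury and 74.9 to 98.5 CPM without it.

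Some genes of axonal transport and the cytoskeleton fell. Of 17 tested members 7 fell and 0 rose, against 1.95% and 2.98% of all named genes in the 12-library fit. Positive log2 fold changes stood in 5 of the 17. The median log2 fold change was -0.55, against 0.03 over all named genes. Over 4433 genes, the 6-library log2 fold change correlated by rank at -0.265 with the gene's exon length and at -0.37 with GC content. The part of these trends in the list was not tested. In bulk ganglion RNA, fewer cells of a type and less RNA per cell cannot be told apart. The summed level of the list overlapped between the groups, at 5538 to 8164 CPM with injury and 7064 to 7425 CPM without it. The 7 were Sptan1, Kif1a, Map1a and Map6, with Ank2, Sptbn1 and Dync1h1 named after their values were seen. In the 12-library fit 7 of 17 were lower with GC content and length offsets, which do not use the whole gene's exon length. Without stimulated uninjured replicate 3, or without stimulated injured replicate 3, 0 of 17 were lower in that fit. Without stimulated injured replicate 2, which stood apart by exon length, 6 of 17 were lower in the 6-library fit, and 9 were lower and 2 higher in the 12-library fit.

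Kif1a, the kinesin that carries synaptic vesicle precursors along axons, was at 29.8, 58.5 and 27.1 CPM with injury and at 75.3, 79.8 and 133.2 CPM without it. The highest injured library was replicate 2 and the highest uninjured one replicate 3, the same libraries that stood apart by exon length. Its log2 fold change was -1.27 (SE 0.31), with an adjusted p of 0.0134 in the 12-library fit. Only 102 bases of its interval were exon. Map1a, a microtubule-associated protein of axons and dendrites, also had its highest values in those libraries, at 83.2, 176.1 and 112.6 CPM against 235.4, 226.9 and 415.4 CPM. Map6, which stabilises microtubules, was at 66.9, 52.7 and 65.0 CPM against 98.6, 90.6 and 105.2 CPM, with no such outlying library. Sptan1, the alpha chain of the spectrin lattice, was at 18.0, 27.0 and 17.7 CPM against 40.0, 36.9 and 66.8 CPM. Dync1h1, the heavy chain of the motor that carries cargo back to the cell body, was at 658.0, 708.2 and 815.0 CPM against 1071, 942.2 and 1287 CPM. Ank2 and Sptbn1 had log2 fold changes of -1.37 (SE 0.42) and -1.45 (SE 0.45).

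Several neuronal channels and synaptic genes fell, though most members of their lists did not pass. Over all named genes tested in the 12-library fit, 2.98% rose and 1.95% fell. Dnm1, the neuronal dynamin that pinches off recycled synaptic vesicles, was at 75.6, 113.4 and 118.4 CPM with injury and at 210.6, 217.8 and 230.0 CPM without it, with control libraries at 73.1 to 83.4 CPM, so the stimulated uninjured libraries stood above both. It was the only called member of 16 tested synaptic vesicle genes, whose median log2 fold change was -0.19. Slc17a7, the vesicular glutamate transporter of that list, was at 166.7, 125.2 and 163.8 CPM against 241.0, 239.6 and 191.2 CPM and did not pass (adjusted p 0.0776 in the 12-library fit).

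Of 15 potassium and HCN channel genes 2 fell, Hcn2 among them, against 1.95% of all named genes, and the median was -0.45. Hcn2, a pacemaker channel of sensory neurons, was at 86.6, 83.2 and 98.3 CPM with injury and at 167.8, 204.1 and 140.3 CPM without it. It was higher with injury among unstimulated mice, at 133.7, 119.4 and 162.6 CPM against 61.6, 63.0 and 68.05 CPM in control libraries. Among 21 sodium, calcium and TRP channel genes Trpc6 rose and Cacna1b and Cacnb3 fell. Trpc6, a calcium-permeable channel opened by diacylglycerol, was at 50.1, 44.1 and 42.8 CPM against 31.1, 23.6 and 27.4 CPM. Cacna1b, the pore of the N-type calcium channel, was at 1.89 to 3.22 CPM against 5.62 to 9.71 CPM. With GC content and length offsets none of the 21 was called.

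Grin1, the obligatory NMDA receptor subunit, was at 18.8, 25.5 and 21.98 CPM with injury and at 38.4, 43.7 and 53.1 CPM without it. Nefm, the medium neurofilament, was the 1 member of 6 sensory neuron markers to fall. It was at 949.5, 989.0 and 1300 CPM against 1808, 1647 and 1792 CPM, and its adjusted p of 0.0279 became 0.0924 with GC content and length offsets. Nlgn2, a neuroligin of inhibitory synapses, was at 52.7, 68.4 and 69.7 CPM against 99.5, 107.7 and 118.1 CPM, and it was called in each of the 12-library fits that left out 1 library. In the same list of 17 adhesion genes Gpm6a, a neuronal membrane glycoprotein, rose, at 62.1, 105.0 and 68.3 CPM against 41.5, 43.2 and 52.2 CPM. Its adjusted p was 0.028 in the 12-library fit, 0.0568 with GC content and length offsets and 0.0603 without stimulated uninjured replicate 3.

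**Figure D3:**
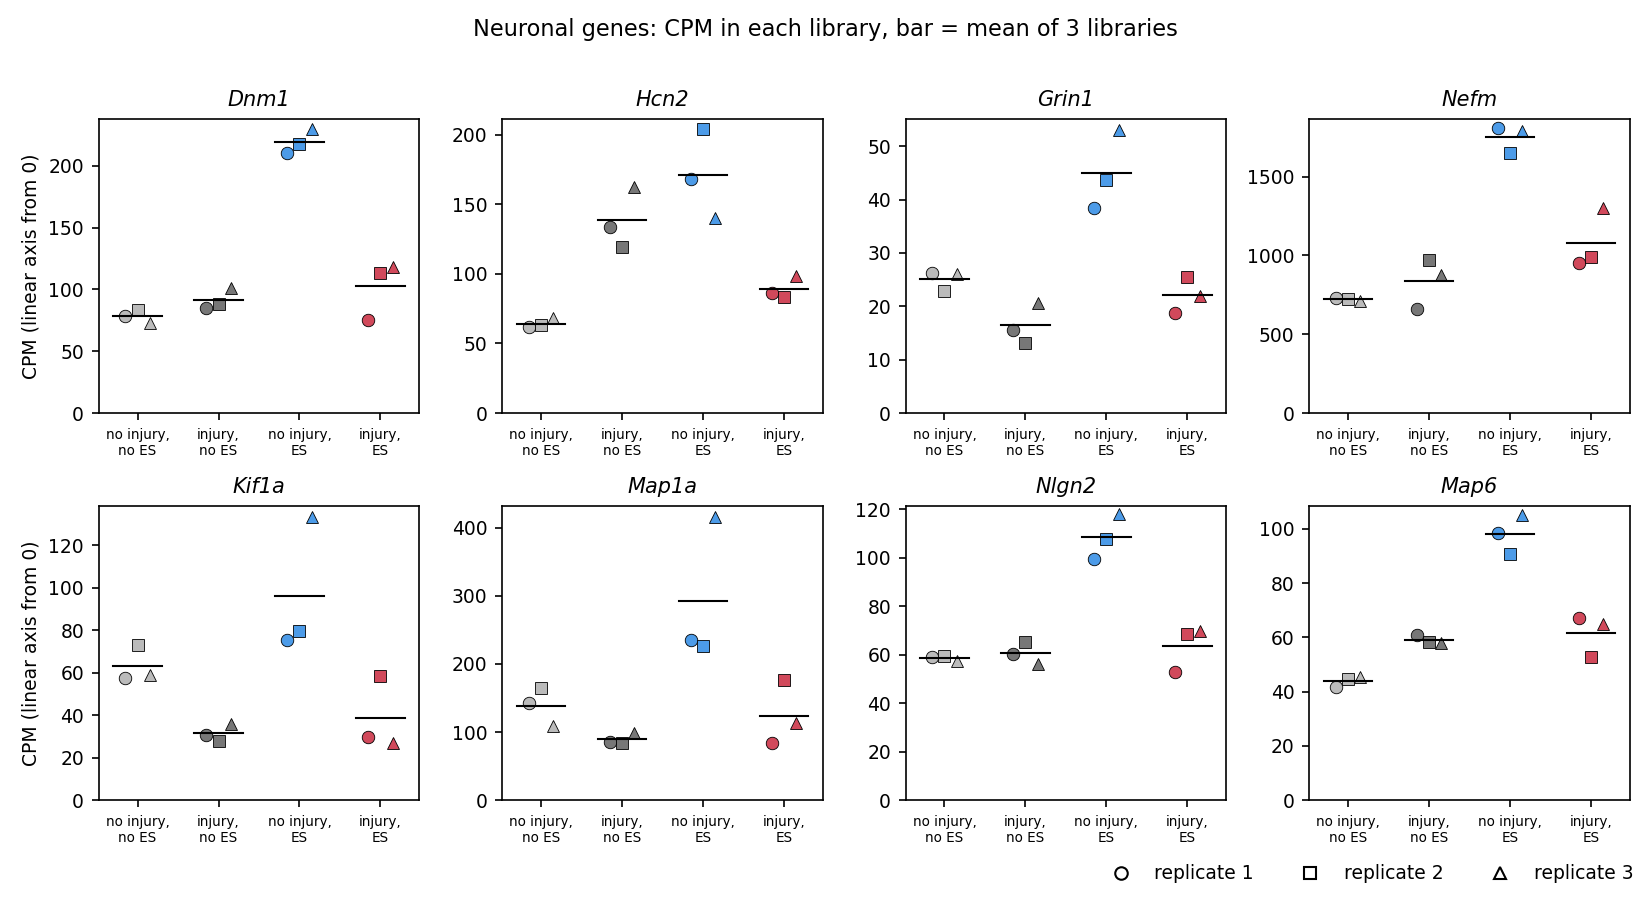
CPM (linear axes from 0) of 8 neuronal genes that fell, in each of the 12 libraries, by group; symbols mark replicate numbers and bars the mean of 3 libraries. The stimulated uninjured libraries are the highest group for Dnm1 (210.6 to 230.0 CPM), and replicate 3 of that group is the highest library for Kif1a and Map1a.

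The potassium channels named in the title of the series gave little to test. Kcnn4, the intermediate-conductance calcium-activated channel, was at 13.8, 5.79 and 10.3 CPM with injury and at 10.8, 9.15 and 6.05 CPM without it. The groups overlapped, with a log2 fold change of 0.25 (SE 0.37) and an adjusted p of 0.805, and the sign turned when stimulated injured replicate 1 was left out (-0.10). Kcnn3 was tested in the 12-library fit only, at a log2 fold change of 0.10 (SE 0.95). Kcnn1 and Kcnn2 had no interval of their own under the naming rule and were not analysed here.

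Among the other genes with the smallest p in the injured direction were Dcn, Rpa3, Srsf3, Smc2, Hilpda, Pdcd10 and Kbtbd3, none of them called in the 6-library fit and all called in the 12-library fit. Dcn, the collagen-binding proteoglycan decorin of fibroblasts, was at 1854, 1722 and 1944 CPM with injury and at 873.4, 801.6 and 927.2 CPM without it. Control libraries were higher than both, at 2641 to 3557 CPM, as were unstimulated injured ones at 2945 to 3553 CPM. Dcn and Postn, the matrix protein periostin, were the 2 of 17 meningeal and fibroblast genes to rise, against 2.98% of all named genes. The adjusted p of Postn was 0.0427 in the 12-library fit and 0.106 with GC content and length offsets. The median of that list was 0.32, and its summed level of 8843 to 10650 CPM overlapped with 5193 to 9804 CPM in the uninjured group.

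Srsf3, a serine and arginine rich splicing factor, was at 204.0, 205.2 and 211.4 CPM with injury and at 119.7, 120.3 and 119.8 CPM without it. The replicates of each group lay close together, and control and unstimulated injured libraries were higher, at 213.4 to 303.5 CPM. Of 25 splicing genes tested in the 12-library fit it rose with Snrpd1, a core protein of the spliceosome's small nuclear ribonucleoproteins. Over all named genes 2.98% rose. The median over the 24 splicing genes tested in the 6-library fit was -0.12. With GC content and length offsets the adjusted p of Snrpd1 became 0.103. Rpa3, the small subunit of the single-stranded DNA binding complex RPA, was at 57.6, 46.6 and 57.3 CPM against 25.9, 27.6 and 20.6 CPM, and its interval was all exon. Smc2, a condensin subunit, was at 34.1, 30.3 and 28.1 CPM against 14.96, 15.1 and 17.5 CPM. Hilpda, a lipid droplet protein induced by low oxygen, was at 38.8, 35.7 and 38.6 CPM against 21.5, 20.3 and 20.7 CPM. Pdcd10, an adaptor of the cerebral cavernous malformation complex, was at 106.7, 92.4 and 106.5 CPM against 60.8, 59.1 and 56.9 CPM. Kbtbd3, of the BTB and kelch protein family, was at 77.3, 83.8 and 84.4 CPM against 49.8, 43.0 and 40.7 CPM. In each of these the stimulated uninjured libraries were the lowest of all 12 libraries.

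Among the genes with the smallest p in the other direction, beside Dnm1, Grin1 and Hcn2, were Adgrg1, Cbl, Camsap2, Wdtc1, Dpp9 and Dmxl2. Adgrg1, an adhesion G protein-coupled receptor, was at 30.3, 36.4 and 34.1 CPM with injury and at 64.2, 66.1 and 74.6 CPM without it. Dpp9, a cytosolic dipeptidyl peptidase, was at 42.2, 49.6 and 50.9 CPM against 81.4, 78.3 and 94.4 CPM. Wdtc1, a WD repeat protein, was at 16.5, 15.3 and 14.2 CPM against 35.7, 33.1 and 27.2 CPM. Dmxl2, a regulator of the vesicular proton pump, was at 4.82, 5.25 and 7.56 CPM against 15.1, 12.9 and 18.7 CPM. Cbl, a ubiquitin ligase of growth factor receptors, and Camsap2, which binds microtubule minus ends, were low, at 1.07 to 1.54 and 1.06 to 1.50 CPM with injury. Without injury they were at 5.33 to 7.32 and 3.86 to 8.84 CPM. All 20 genes of smallest p were called in the 6-library fit without stimulated injured replicate 2 and 0 in the other 5 such fits that left out 1 library. In the 12-library fit 13 of 20 were called whichever library was left out, and 17 of 20 were called with GC content and length offsets.

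Nuclear genes of oxidative phosphorylation rose in part. Of 15 tested, 4 rose and 0 fell, against 2.98% and 1.95% of all named genes. The median was 0.30, against 0.03 over all named genes. Ndufa4, a subunit of the terminal oxidase, was at 2122, 1401 and 1998 CPM with injury and at 1154, 1038 and 844.7 CPM without it. Ndufa5, a complex I subunit, was at 547.0, 345.4 and 489.1 CPM against 284.8, 289.4 and 219.5 CPM. Replicate 2 was the lowest injured library in both. Ndufb4 of complex I and Uqcrc2 of complex III also rose, with log2 fold changes of 0.83 (SE 0.25) and 0.59 (SE 0.17). With GC content and length offsets 2 of 15 were higher, and without stimulated uninjured replicate 3 none was. The 5 tested mitochondrially encoded genes were not called, with a median of 0.59. mt-Cytb, the cytochrome b of complex III, was at 37493, 28068 and 32751 CPM against 21505, 25600 and 16076 CPM.

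Glial and myelin lists gave few calls in this comparison, in which 2.98% of all named genes rose and 1.95% fell. Of 7 satellite glia genes Ednrb, the endothelin B receptor, rose, at 64.5, 56.4 and 68.9 CPM against 39.3, 41.6 and 41.0 CPM. Fbln2, a matrix protein of the same list, fell, at 23.8, 39.0 and 43.6 CPM against 58.0, 55.6 and 86.4 CPM. Neither was called without stimulated uninjured replicate 3, and with GC content and length offsets the adjusted p of Fbln2 became 0.0999. Of 7 oligodendrocyte genes 0 were called, with a median of -0.37. Gpr37, a receptor of myelinating glia, was at 81.4, 170.4 and 103.5 CPM against 192.3, 265.8 and 151.6 CPM. In the 6-library fit without stimulated injured replicate 2, the highest of the 3 injured libraries for Gpr37, 2 of 7 oligodendrocyte genes were lower. Of 6 myelinating Schwann cell genes 0 were called. Mag, a glycoprotein of the inner myelin surface, was at 78.7, 127.6 and 72.1 CPM against 159.8, 170.4 and 101.1 CPM.

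Single members of other lists passed, where 2.98% of all named genes rose and 1.95% fell. Stat3, the transcription factor of cytokine and axon injury signals, was the 1 of 8 axon injury response genes to fall, at 23.8, 40.9 and 35.2 CPM against 58.1, 50.8 and 88.8 CPM. Per2, the 1 of 5 clock genes to pass, rose at 29.8, 40.3 and 51.5 CPM against 22.3, 26.4 and 20.9 CPM. In that list 2 genes had negative log2 fold changes, among them Arntl at -1.16. Slc4a4, a bicarbonate transporter of astrocytes, was the 1 of 7 astrocyte genes to pass. It fell from 2.90, 4.52 and 3.50 CPM to 0.634, 0.536 and 0.827 CPM, which are few reads at this depth. Slc1a3 was the 1 astrocyte gene with a positive log2 fold change (0.97). Neither Arntl nor Slc1a3 passed. With GC content and length offsets the adjusted p of Stat3 became 0.107 and that of Per2 0.0656. Stat3, Per2 and Slc4a4 were each not called in the 12-library fit without stimulated uninjured replicate 3 or without stimulated injured replicate 3. None of the 11 tested neurotrophic ligands and receptors was called, with a median of -0.46.

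The injury effect was then compared with that among unstimulated mice, with which it shares no library. The difference between both effects was called in 2507 of 13053 intervals (19.2%), and in named genes it was higher among stimulated mice in 380 (7.96%) and lower in 591 (12.4%). The 2507 intervals became 1126 to 1509 without any one of control replicates 1 and 3, unstimulated injured replicate 2, stimulated injured replicate 3 or stimulated uninjured replicates 1 and 2, and 1165 with GC content and length offsets. Of the 235 named genes called here, 142 also differed between the effects, and 106 had the same sign in unstimulated mice. No share of same signs over all named genes is given, so counts of same signs here and below are description only. Since the difference contains the 6 stimulated libraries, these counts are not independent of the calls above.

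For immediate early genes the median over the list was 1.00 in stimulated and 1.18 in unstimulated mice in the 12-library fit, and 8 of 11 members had the same sign in both. None of the 7 that rose was called for the difference. For Fos the difference was 0.42 (SE 0.38, adjusted p 0.474) and for Dusp1 it was -0.51 (SE 0.32, adjusted p 0.29, and 0.0425 with GC content and length offsets). Arc was the 1 member called for it, at -2.28 (SE 0.46, adjusted p 0.00452). Of all named genes, 12.4% were called lower and 7.96% higher for the difference. A p that misses the threshold does not show that the effects were alike.

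Of the lists plotted, oligodendrocyte and astrocyte genes lay furthest apart. The oligodendrocyte median was -0.40 with stimulation and 1.82 without it, and the difference was lower in 4 of 7 genes. The astrocyte median was -0.63 and 1.66, with 5 of 7 lower. Over all named genes the difference was called lower in 12.4% and higher in 7.96%, and its median was -0.07. For Gpr37 the difference was -2.66 (SE 0.43, adjusted p 0.00182) and for Mag -2.67 (SE 0.37, adjusted p 0.000875). The summed level of oligodendrocyte genes was 503.5 to 696.2 CPM in control, 1019 to 1556 CPM in unstimulated injured, 566.6 to 745.6 CPM in stimulated uninjured and 421.0 to 719.1 CPM in stimulated injured libraries. The unstimulated injured libraries were thus the highest group.

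**Figure D4:**
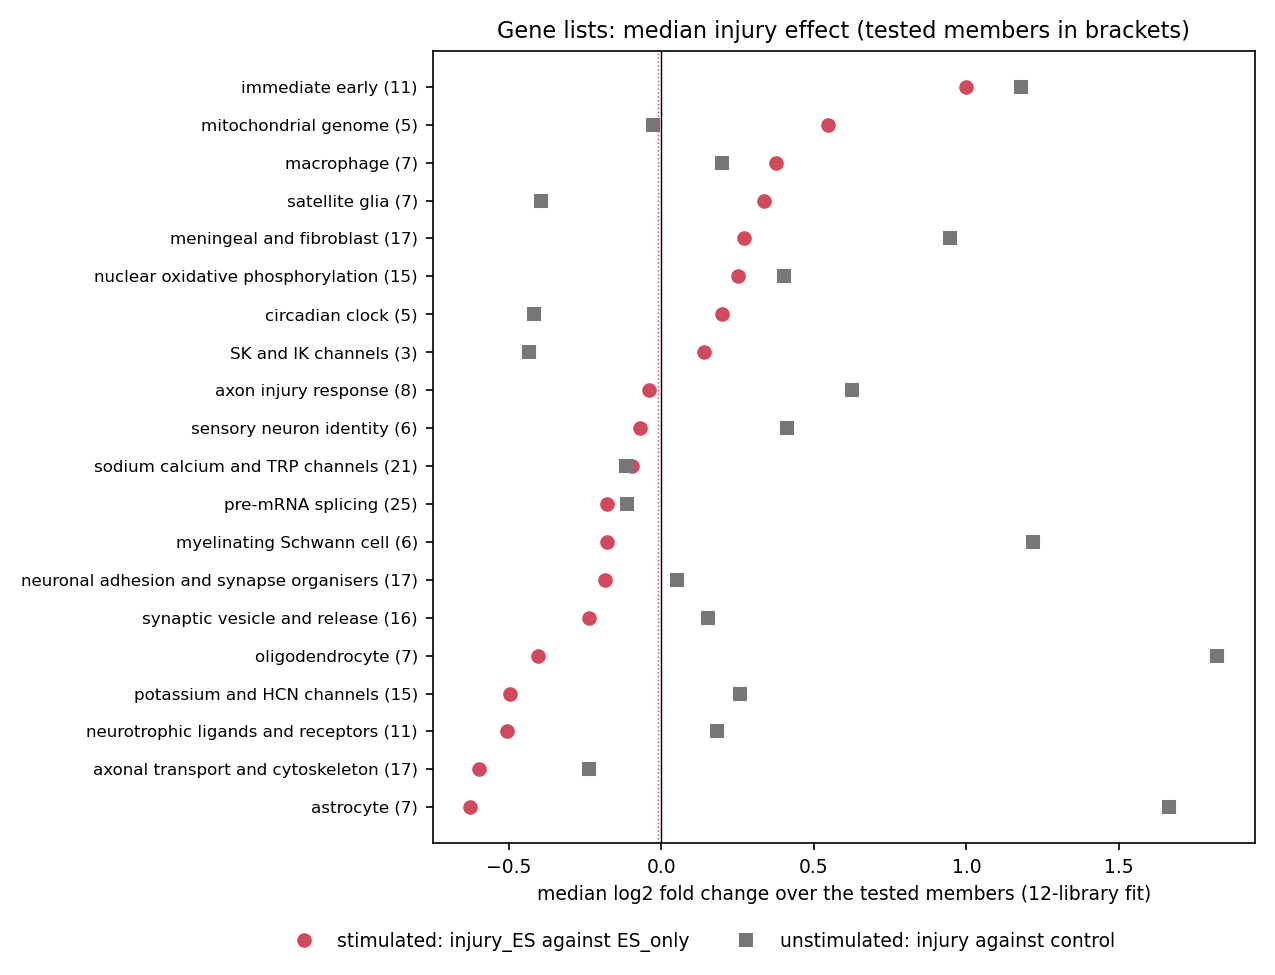
Median log2 fold change over the tested members of each list (rows, number of members in brackets) for injury among stimulated mice (red circles) and among unstimulated mice (grey squares), 12-library fit; the dotted line is the median over all named genes among stimulated mice. Immediate early genes have medians of 1.00 and 1.18, and oligodendrocyte genes -0.40 and 1.82.

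**Figure D5:**
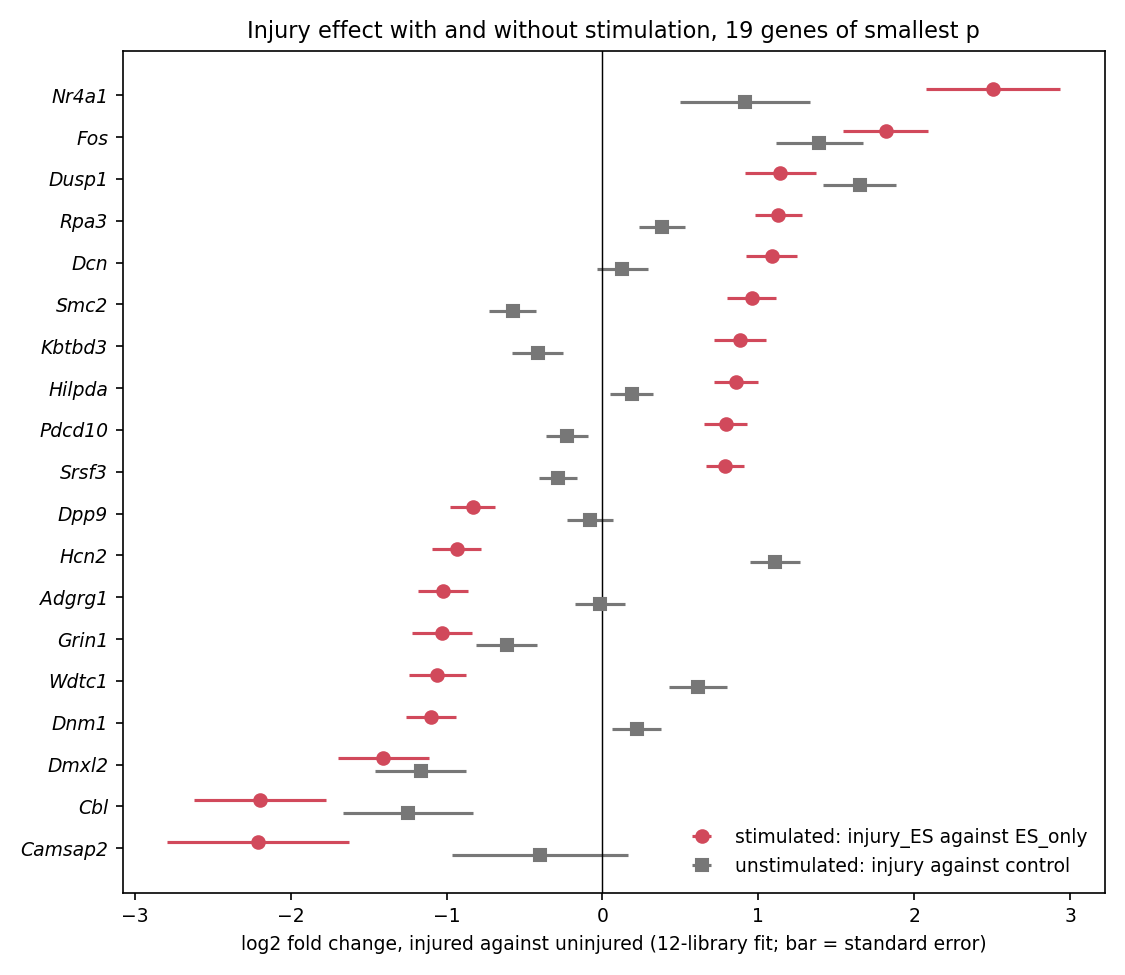
Log2 fold change with its standard error for injury among stimulated (red circles) and unstimulated mice (grey squares), 12-library fit, for 19 of the 20 genes with the smallest p in the 6-library fit. The red values of Fos, Dusp1 and Nr4a1 have grey values on the same side of 0, whereas Hcn2 is at -0.93 with and 1.11 without stimulation.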

How the data were processed

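The deposited values are read counts per gene interval, made with featureCounts 2.0.6 in paired mode with multiple overlaps allowed and no strand setting, over Ensembl 110 gene models of GRCm39, per the file headers. The submitters' processing notes name FastQC, Salmon 1.10.2 and DESeq2. The sources used here do not give the aligner's version or genome build. Poly(A) RNA was sequenced as paired 150 bp reads, per the labels. The counts fit reads aligned to GRCm38: 98.6% to 99.3% of nuclear counts lay in intervals over GENCODE M21 exons, and 51.9% to 57.2% after exons were moved by 1000000 bp. Genes were therefore named by position, where an interval lay over at least 100 bases of exon of exactly 1 gene, which gave 9967 named genes of 56941 identifiers. Reads from overlapping or antisense transcripts cannot be told apart.

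The main test was edgeR 4.0.16's robust quasi-likelihood F test (R 4.3.3) on intervals kept by filterByExpr, scaled by TMM and adjusted by Benjamini-Hochberg over all of them, in the 6 stimulated libraries with group as the only term. Alternatives were the 12-library fit, DESeq2 1.42.0, limma 3.58.1's voom with quality weights, other scalings and filters, and a replicate block. Spline offsets for GC content and for the exon bases under each interval were another. The difference of injury effects was tested in the 12-library fit. The test was tried on simulated counts with known changes. Genes named are Kcnn1 to Kcnn4, the 10 of smallest p in each direction with at least 5 CPM and no overlap of groups (fewer than 10 genes were called), and up to 4 members of smallest p of each list described; others are marked where they appear or complete a count of called members, and 2 genes that the rule names are not reported here. The members and the 44 gene lists were chosen with earlier results of these data known. Promoter windows are from RefSeq.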

Additional observations from a re-analysis of the deposited data

Results flagged for a closer look

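For 12 of the 19 genes of smallest p shown here, the injury effect differed between stimulated and unstimulated mice by a test of the difference itself (12-library edgeR fit, adjusted p under 0.05). Over all named genes tested, the difference was called higher in 7.96% and lower in 12.4%. The log2 differences, stimulated minus unstimulated, were positive for Smc2 (1.53), Kbtbd3 (1.30), Srsf3 (1.07), Pdcd10 (1.02), Dcn (0.96), Rpa3 (0.75) and Hilpda (0.67). They were negative for Hcn2 (-2.04), Wdtc1 (-1.67), Dnm1 (-1.32), Adgrg1 (-1.01) and Dpp9 (-0.75). With GC content and length offsets 6 of the 12 were called, and Dpp9, Rpa3, Dcn, Pdcd10, Adgrg1 and Srsf3 were not. When each library was left out in turn 9 of the 12 were always called, and Dpp9, Hilpda and Rpa3 were not. The effects had opposite signs in 7 of the 12, and in Hcn2 and Wdtc1 the unstimulated values were 1.11 and 0.61. The genes were chosen on the stimulated libraries, which the difference contains, so a difference was favoured by the choice. Groups of 3 libraries were not screened for single outlying samples.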

How the results depend on the processing

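In the 6-library fit, the counts of 0 stayed at 0 with RLE factors, library totals, a minimum of 50 reads in 3 libraries, GC content and length offsets, and both naming alternatives. They became 289 intervals higher and 242 lower (142 and 93 named genes) with all 12 libraries, 224 and 191 (110 and 80) with DESeq2, 766 and 787 (349 and 316) with voom quality weights, 72 and 233 (31 and 92) with no filter beyond 1 read, and 404 and 368 (171 and 149) without both stimulated injured replicate 2 and stimulated uninjured replicate 3. Leaving out 1 library gave 0 to 302 higher and 0 to 335 lower (0 to 129 and 0 to 139 named genes). In the 12-library fit, GC content and length offsets gave 152 and 124 (59 and 51), library totals 167 and 486 (80 and 182), DESeq2 656 and 495 (304 and 190), and leaving out both libraries 606 and 543 (266 and 218). Names that match the deposited identifier left 766 genes tested, of which 48 were higher and 6 lower. Under the naming used here these were 142 and 93 of 4771. Leaving out 1 library gave 35 to 873 higher and 35 to 931 lower (20 to 370 and 11 to 369 named genes). The difference of injury effects was called in 1126 to 3407 intervals when 1 library was left out and in 1165 with GC content and length offsets. Whether replicate numbers mark paired samples is not labelled, and these correlations cannot show it. Same-numbered stimulated libraries were not the closest between the groups: their deviations correlated at 0.218, -0.305 and -0.108. The highest such value between the groups was 0.498, for stimulated injured replicate 2 and stimulated uninjured replicate 3. With the replicate number as a block, 0 intervals were called in the 6-library fit and 165 higher and 129 lower (87 and 53 named genes) in the 12-library fit. With the block and GC content and length offsets these were 0, and 45 and 38 (19 and 15). The block left the difference of injury effects at 1915. The log2 fold change of Kcnn4 ranged from -0.10 to 0.49 (-0.11 to 0.50 in the 12-library fit) when 1 library was left out, and was -0.01 without stimulated uninjured replicate 3 in the latter. None of the other genes among the 57 whose fold change was recomputed changed sign under an alternative. At this depth genes under about 1 CPM rest on few reads. The causes of these shifts were not tested. The alternatives to the 12-library fit, the fits without both libraries and the offsets for the difference were chosen after seeing the data.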
